A study of Mus musculus with 4 samples.

Results

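Adenine nucleotide translocators and the c-ring of ATP synthase are the inner-membrane machinery through which mitochondria make and export ATP, and 6 mouse genes that encode them are described here. They were taken by name and were Slc25a4, Slc25a5 and Slc25a31 for the translocators, and Atp5g1, Atp5g2 and Atp5g3 for subunit c of ATP synthase. They were 6 of 21887 protein-coding genes on chromosomes 1 to 19, X and Y. Sites bound by Nynrin had been mapped by Flag chromatin immunoprecipitation and sequencing (ChIP-seq) in lineage-negative bone-marrow cells, the fraction left after cells with mature-lineage surface markers are removed. All 4 libraries came from C57BL/6 mice aged 8 weeks that carried a Nynrin transgene with a triple Flag tag (3xFlag-Nynrin-Tg). The 2 Flag libraries, replicates 1 and 2, gave a peak list each. The 2 input libraries are not used here. The labels name neither the promoter of the transgene nor the number of mice behind a library, and no library of untagged cells was used here. Peak lists hold no expression values, so the cell type could not be checked against markers.

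A translocator exchanges ADP from the cytosol for ATP from the matrix. Slc25a4 encodes ANT1, the main form of heart and skeletal muscle, Slc25a5 encodes ANT2, which is widely expressed in dividing cells, and Slc25a31 encodes ANT4, the form of male germ cells. Subunit c forms the ring in the membrane part of ATP synthase that turns as protons flow through. The Atp5g genes encode the same mature subunit behind different targeting peptides. Both the translocators and the c-ring have been proposed as parts of the mitochondrial permeability transition pore, the channel named in the series title. The question addressed was at which of these genes peaks lay, how far from the start of transcription, and whether the replicates shared them.

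The stretch from 250 bases before to 50 bases after each RefSeq start site (build GRCm38.p6, the assembly behind mm10) is shown for all 6 genes, because the peaks described next lay on or beside these stretches at 4 of them and were missing at the others. All 6 genes had a single entry in the promoter table. Sequences run 5′ to 3′ along the transcribed strand, and capitals mark matches to 8 motifs searched on both strands.
Atp5g1 (chr11:96075582-96075881, minus strand): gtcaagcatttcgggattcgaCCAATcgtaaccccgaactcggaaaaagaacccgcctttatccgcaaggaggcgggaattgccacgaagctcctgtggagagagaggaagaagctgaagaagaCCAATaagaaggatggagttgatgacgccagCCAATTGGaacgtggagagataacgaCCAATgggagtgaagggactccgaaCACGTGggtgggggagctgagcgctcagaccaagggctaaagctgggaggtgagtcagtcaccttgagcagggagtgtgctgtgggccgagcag
Atp5g2 (chr15:102670998-102671297, minus strand): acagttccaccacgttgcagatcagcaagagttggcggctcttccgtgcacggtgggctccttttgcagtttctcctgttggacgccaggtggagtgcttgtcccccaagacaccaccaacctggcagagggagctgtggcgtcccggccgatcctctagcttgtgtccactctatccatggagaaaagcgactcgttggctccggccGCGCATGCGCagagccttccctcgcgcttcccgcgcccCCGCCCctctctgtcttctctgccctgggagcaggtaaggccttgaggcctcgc
Atp5g3 (chr2:73911277-73911576, minus strand): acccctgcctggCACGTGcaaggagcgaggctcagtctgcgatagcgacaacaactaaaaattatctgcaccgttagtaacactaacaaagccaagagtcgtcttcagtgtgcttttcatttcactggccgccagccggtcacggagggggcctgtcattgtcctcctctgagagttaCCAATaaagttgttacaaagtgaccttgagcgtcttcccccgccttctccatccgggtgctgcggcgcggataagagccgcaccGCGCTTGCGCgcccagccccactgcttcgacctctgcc
Slc25a5 (chrX:36795347-36795646, plus strand): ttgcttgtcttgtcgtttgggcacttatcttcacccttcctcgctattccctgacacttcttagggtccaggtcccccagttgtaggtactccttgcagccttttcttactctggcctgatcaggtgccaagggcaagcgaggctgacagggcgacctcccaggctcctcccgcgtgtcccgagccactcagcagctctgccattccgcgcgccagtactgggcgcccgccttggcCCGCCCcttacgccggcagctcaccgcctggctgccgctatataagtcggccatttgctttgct
Slc25a4 (chr8:46211013-46211312, minus strand): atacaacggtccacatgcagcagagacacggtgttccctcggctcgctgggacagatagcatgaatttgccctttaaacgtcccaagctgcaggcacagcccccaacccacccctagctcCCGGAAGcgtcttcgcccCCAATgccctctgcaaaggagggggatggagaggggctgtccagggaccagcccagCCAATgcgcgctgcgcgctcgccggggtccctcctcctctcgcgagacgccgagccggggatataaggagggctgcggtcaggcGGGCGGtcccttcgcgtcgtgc
Slc25a31 (chr3:40708621-40708920, plus strand): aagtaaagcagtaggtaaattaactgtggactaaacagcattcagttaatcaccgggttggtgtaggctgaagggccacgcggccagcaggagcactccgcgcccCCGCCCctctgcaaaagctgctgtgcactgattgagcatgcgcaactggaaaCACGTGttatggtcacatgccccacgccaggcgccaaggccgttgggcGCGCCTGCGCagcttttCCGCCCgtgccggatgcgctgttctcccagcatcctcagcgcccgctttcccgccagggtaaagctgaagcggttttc

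The 3 c-ring genes had a peak over the start site in both replicates, Slc25a5 had a peak in replicate 2 alone, and Slc25a4 and Slc25a31 had none at the start site in either. A peak's summit is the position of its highest signal, and a gene is termed called at its start site when a summit lay within 1000 bp of it. Of the 6 genes, 3 were called in both replicates, against 34.5% of the 17492 protein-coding genes in the promoter table. In replicate 1 the count was 3 (35.1% of all genes) and in replicate 2 it was 4 (48.1%). Start sites were the alternative rule here. The main rule fixed for the counts was a summit within 1000 bp of either gene end. By that rule 2 of the 6 genes were called in both replicates, against 31.9% of all 21887 protein-coding genes, so near that share. The members were chosen by name with results of these data known, so no test of the list is given. All members called in both replicates were c-ring genes, and no translocator gene was. This split rests on 3 genes of each kind, was not tested and is not read as a property of either kind. Slc25a5 lies on the X chromosome, where 5.26% of genes with a start site were called in both replicates. The Atp5g3 peak was the weakest of the members' peaks in replicate 1.

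**Figure D1:**
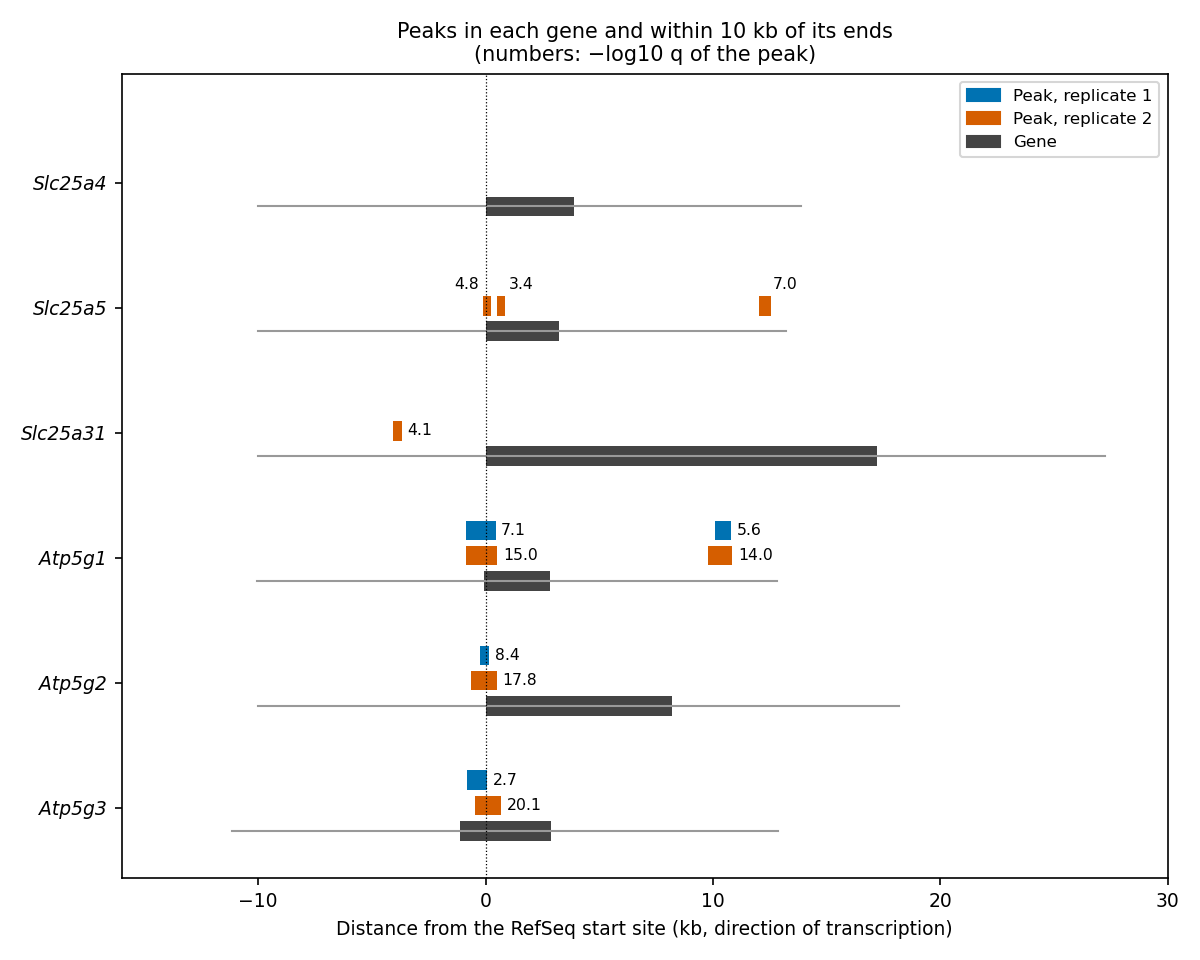
Peaks within each gene (dark bar) and 10 kb of its ends (thin line), plotted by distance from the RefSeq start site in kb along the direction of transcription, with blue bars for replicate 1, orange bars for replicate 2 and the −log10 q of each peak in figures. The c-ring genes carry a peak of both replicates over the start site, Slc25a5 and Slc25a31 have orange bars alone, and Slc25a4 has no bar.

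Atp5g1 lies on chromosome 11 at 96072793 to 96075694 on the minus strand. Its start-site peak spanned 96075190 to 96076475 in replicate 1, and in replicate 2 it spanned 96075122 to 96076468. Fold enrichment, the authors' ratio of signal to background at the summit, was 3.36 in replicate 1 and 5.81 in replicate 2. Its size is not compared between the lists, and each value is read within its own list. There it exceeded or equalled about 21.5% of peaks in replicate 1 and 67.9% in replicate 2, taking the mean rank of ties. By −log10 q, the peak caller's measure of significance after correction for many positions, the peak stood higher, with 7.07 (percentile 68.7) and 15.03 (percentile 82.5). The Atp5g1 peaks were 1286 and 1347 bp wide and overlapped over 1279 bp. Their summits lay 178 and 329 bp upstream of the start site, 151 bp apart. Both peaks covered the start site, so the pair coincided almost entirely while the summits sat in the upstream part.

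A further pair of peaks fell within 10 kb of Atp5g1, beyond its 3′ end. The replicate 1 peak spanned 96064842 to 96065524 (fold enrichment 3.56, −log10 q 5.62), and the replicate 2 peak spanned 96064784 to 96065840 (7.17 and 14.0). Their summits lay 76 and 3 bp from the start site of the neighbour Ube2z, which encodes a ubiquitin-conjugating enzyme, and more than 7 kb from Atp5g1 (7353 and 7432 bp from its nearest end). They are therefore counted as peaks near Atp5g1 by position only.

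Atp5g2 lies on chromosome 15 at 102662868 to 102671047 on the minus strand, and its start-site peak was the only one in the gene or within 10 kb. In replicate 1 it spanned 102670890 to 102671302, and in replicate 2 it was wider, at 102670562 to 102671686. Fold enrichment was 3.90 and 7.93 (percentiles 43.1 and 85.4), and −log10 q was 8.39 and 17.8 (percentiles 77.3 and 86.2). These were the highest fold enrichments of any member in both lists. The replicate 1 peak was 413 bp wide and lay wholly inside the 1125 bp peak of replicate 2. The summits were 84 and 39 bp upstream of the start site and 45 bp apart, the closest pair among the members. No end of another protein-coding gene lay nearer than 35646 bp to these summits.

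Atp5g3 lies on chromosome 2 at 73908447 to 73912464 on the minus strand. The replicate 1 peak spanned 73911250 to 73912123, and that of replicate 2 spanned 73910631 to 73911797. They were 874 and 1167 bp wide, overlapped over 548 bp, and both covered the start site. The summits lay on either side of it, 144 bp upstream in replicate 1 and 48 bp downstream in replicate 2. This gene stood far apart in rank between the lists. In replicate 1 fold enrichment was 3.10 and −log10 q 2.66 (percentiles 12.7 and 14.1), the weakest member peak of that list. In replicate 2 they were 7.70 and 20.1 (percentiles 83.8 and 90.0), the highest −log10 q of any member. Ranked among the genes called at a start site in each replicate, the −log10 q of Atp5g3 stood at percentile 7.64 in replicate 1 and 72.4 in replicate 2. A gap at least as wide was seen in 2.52% of the 6033 genes called in both. For Atp5g1 and Atp5g2 the same ranks were 52.5 and 55.3, and 63.8 and 63.6.

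Whether distance was taken from the start site or from the gene's bounds changed how Atp5g3 was counted. The gene table places its upstream bound 1138 bp before the RefSeq start site of the promoter table. Measured from the nearest bound, the summits were 994 and 1186 bp away, on either side of the 1000 bp limit, and by that rule the gene had a summit at an end in replicate 1 alone. By gene ends 3 members were called in replicate 1 (32.6% of all genes) and 3 in replicate 2 (45.5%). With either gene end in place of the start site, 2 of the 6 members, Atp5g1 and Atp5g2, were called in both replicates, against 31.9% of all 21887 protein-coding genes. Atp5g3 was among 597 genes called in both replicates by the start site and not by gene ends, and 332 genes with a start-site entry went the other way. With −log10 q of at least 5, Atp5g3 was lost in replicate 1 by either rule, leaving 2 members called in both (23.0% of all genes at start sites and 21.1% at gene ends).

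**Figure D2:**
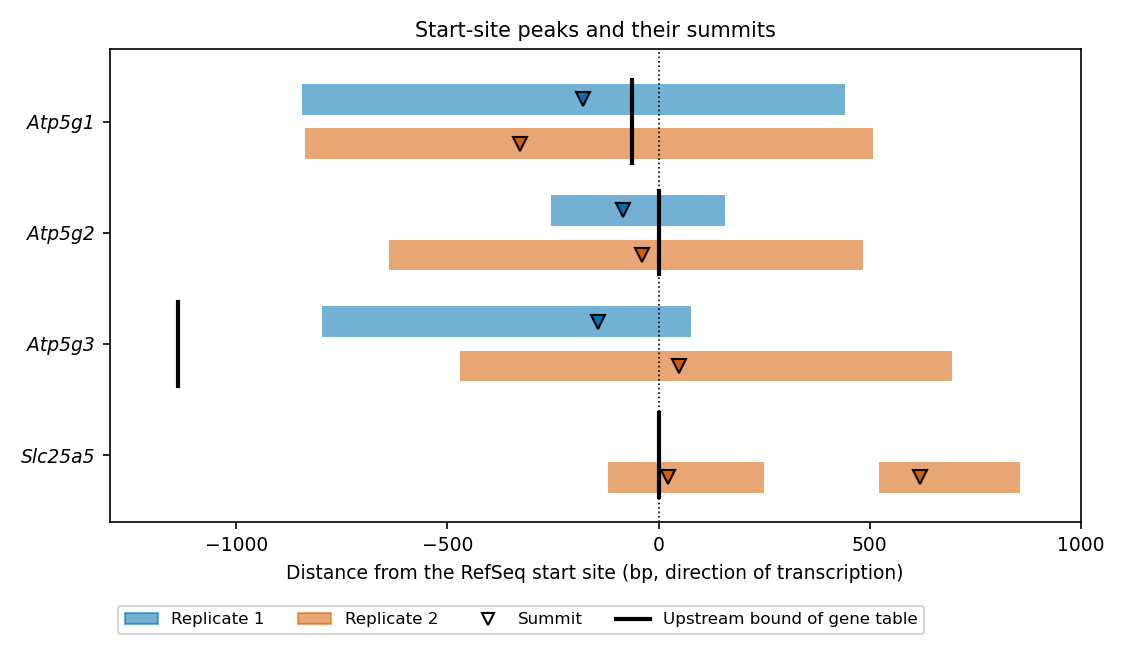
Extent (bars) and summit (triangles) of each peak with a summit within 1000 bp of the start site, by distance from the RefSeq start site in bp, with replicate 1 in blue, replicate 2 in orange and the upstream bound of the gene table as a thick black line. All c-ring peaks cross the dotted line at the start site, and the bound of Atp5g3 stands 1138 bp upstream of it.

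Slc25a5 lies on chromosome X at 36795597 to 36798808 on the plus strand, and 3 peaks of replicate 2 and none of replicate 1 fell in it or within 10 kb. The first ran from 36795477 to 36795846, with its summit 22 bp downstream of the start site (fold enrichment 4.25, −log10 q 4.76). A second ran from 36796119 to 36796453, with its summit 619 bp downstream (3.72 and 3.39). The third lay 9056 bp past the 3′ end, from 36807602 to 36808160 (5.05 and 7.02), and had no end of another protein-coding gene within 19297 bp. The first peak sat as close to the start site as those of the c-ring genes and was weaker than theirs in the same list. Its −log10 q stood at percentile 38.6 of 25787 peaks. Replicate 1 held 12702 peaks, and when replicate 2 was limited to its 12702 peaks of highest −log10 q, the first 2 Slc25a5 peaks dropped out. The nearest replicate 1 summit was 71882 bp from the gene, with a −log10 q of 1.60.

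Slc25a5 is the only member on the X chromosome, where few genes were called. Of 817 X-linked genes with a start-site entry, 5.26% were called in both replicates, against 36.4% of 16457 autosomal genes (no start site on chromosome 18 was used here). Counting each replicate by itself, 5.51% of X-linked genes were called in replicate 1 and 20.8% in replicate 2. Of the 170 X-linked genes called in replicate 2, 25.3% were also called in replicate 1, against 71.7% of the 8419 genes called in replicate 2 on all chromosomes. The labels do not give the sex of the mice, and the part of the chromosome in the replicate difference at Slc25a5 was not tested. The gene table listed 2 pseudogenes under the name of Slc25a5, and neither overlapped a peak. How reads that match several places were treated is not given in the sources used here.

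Slc25a31 lies on chromosome 3 at 40708871 to 40726094 on the plus strand. Replicate 1 had no peak in it or within 10 kb. Replicate 2 had a single weak peak upstream, from 40704793 to 40705179 (fold enrichment 3.97, −log10 q 4.06, percentiles 29.4 and 30.5). Its summit was 3886 bp before the start site and 209 bp beyond the end of the neighbour Intu, a gene of cilium formation. The nearest replicate 1 summit lay 19333 bp past the other end of the gene, 186 bp from the start site of Hspa4l, which encodes a heat shock protein family member.

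Slc25a4 lies on chromosome 8 at 46207168 to 46211062 on the minus strand. Neither replicate had a peak in the gene or within 10 kb of it. The nearest summits were 43518 bp away in replicate 1 (fold enrichment 4.27, −log10 q 6.10) and 43481 bp away in replicate 2 (7.97 and 16.8). Both lay inside Cfap97, 1555 and 1592 bp from its lower-coordinate end. Slc25a4 was the only member with no peak of either replicate in this stretch. An absent peak says that the authors' software called none there, and no signal values were used here to give a lower limit.

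Over the wider stretch of gene body and 10 kb to either side, 3 of the 6 members had a peak in both replicates, against 46.3% of all protein-coding genes. By replicate the counts were 3 in replicate 1 (46.6% of all genes) and 5 in replicate 2 (61.0%). The additional 2 in replicate 2 were Slc25a5 and Slc25a31. No member had a peak in replicate 1 alone. Where both replicates had start-site peaks, they overlapped at all 3 genes and the summits were 45 to 192 bp apart. Such overlap was usual. Of the 6981 protein-coding genes called in both replicates by gene ends, 6927 had overlapping peaks at the same end. The overlap covered 50% of both peaks at Atp5g1 alone, since the replicate 2 peak was wider at Atp5g2 and shifted downstream at Atp5g3. The share of all genes that meet this 50% rule was not computed.

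**Figure D3:**
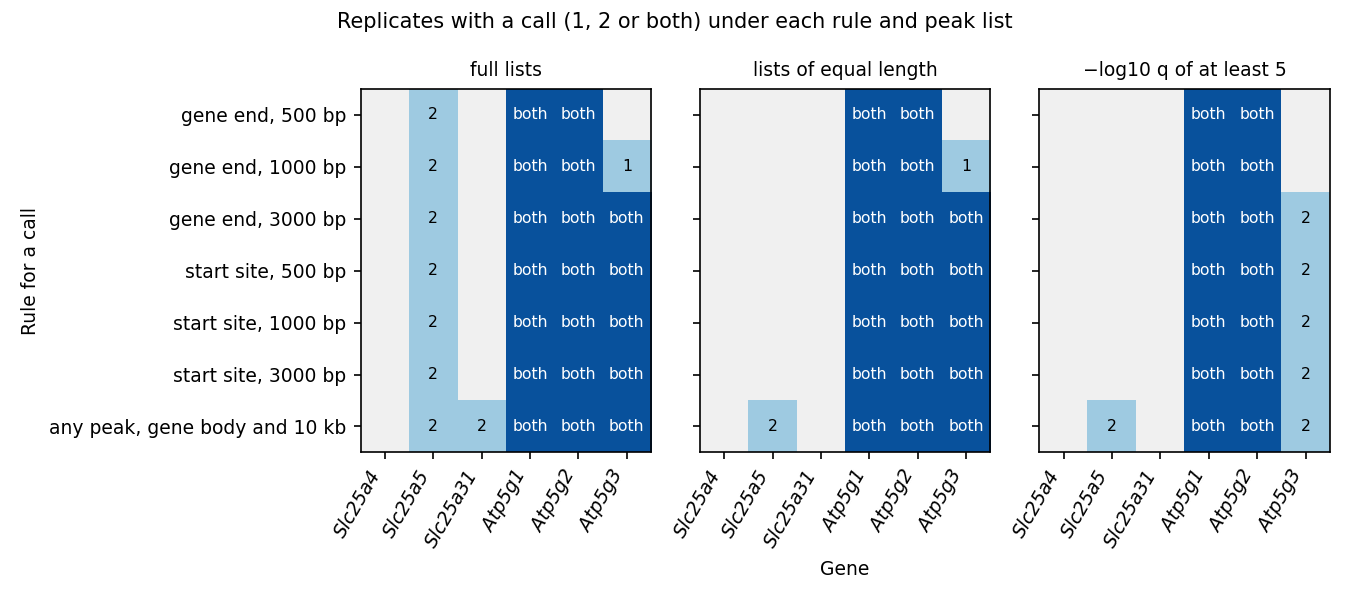
Replicates with a call (1, 2 or both) for each gene under 7 rules, with the full peak lists, with lists of equal length and with peaks of −log10 q of at least 5. Atp5g1 and Atp5g2 stay called in both replicates under all settings shown. Atp5g3 depends on the rule and the cutoff, and the start-site call of Slc25a5 in replicate 2 is lost in the shorter lists. A fold enrichment of at least 5, not plotted, leaves neither Atp5g1 nor Atp5g2 called by gene ends in both replicates.

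The order of the members by fold enrichment differed between the lists. In replicate 1 it ran Atp5g2 (3.90), Atp5g1 (3.36) and Atp5g3 (3.10). In replicate 2 it ran Atp5g2 (7.93), Atp5g3 (7.70), Atp5g1 (5.81) and Slc25a5 (4.25). The lists hold 1 value per peak with no error, so whether neighbours in this order differ cannot be said. Among all genes called at a start site, the median fold enrichment was 4.29 in replicate 1 and 6.98 in replicate 2. All 3 c-ring genes were below the median in replicate 1, at percentiles 12.8 to 37.7 of those genes. In replicate 2 Atp5g2 and Atp5g3 were above it (percentiles 61.8 and 58.5), and Atp5g1 (31.8) and Slc25a5 (12.8) below it.

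**Figure D4:**
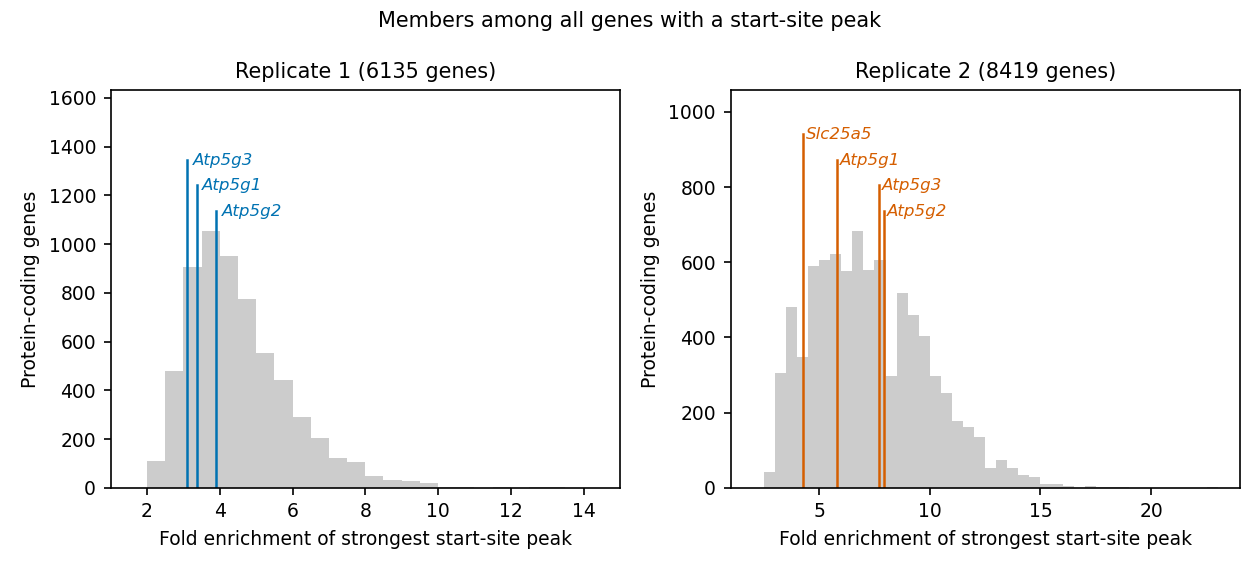
Number of protein-coding genes by fold enrichment of their strongest start-site peak (grey, steps of 0.5), in replicate 1 (6135 genes) and replicate 2 (8419 genes), with the members as labelled lines. The members sit in the lower and middle range, between 3.10 and 3.90 in replicate 1, between 4.25 and 7.93 in replicate 2, and in neither list in the upper tail.

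The start-site stretches printed above were all above the median of coding promoters in their ratio of observed to expected CpG dinucleotides. The ratio of observed to expected CpG was 0.67 at Slc25a5, 0.68 at Atp5g2, 0.74 at Atp5g1, 0.78 at Slc25a4, 0.83 at Slc25a31 and 0.88 at Atp5g3, against a median of 0.57 over 21263 promoters of protein-coding genes. Slc25a5 and Atp5g2 were close to the middle of those promoters, at percentiles 58.0 and 59.0. The median was 0.82 over the promoters of genes called at a start site in both replicates, and 4 of the 6 members lay below it. All 6 were above 0.6. Of the 8896 genes with such a promoter, 59.8% were called at the start site in both replicates, against 8.28% of the 8596 others. Set against the first share, 3 of 6 members is near the background. The ratio did not separate the members with peaks from those without, since Slc25a4 and Slc25a31 lay between Atp5g1 and Atp5g3. GC content ranged from 55.3% at Atp5g1 to 65.7% at Slc25a4, with a median of 56.3% over all coding promoters.

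The motifs were described by letters alone, and a match is not evidence of a bound factor. The NRF1 motif is named for a regulator of nuclear genes for mitochondrial proteins. It was found in 4.60% of all 32851 promoters, in 6.38% of coding promoters and at 3 members. It began at base -42 of Atp5g2, counted back from the start site, at -45 of Slc25a31 and at 13, inside the transcribed part, of Atp5g3. The matches were thus at genes called in both replicates (Atp5g2 and Atp5g3) and at a gene called in neither (Slc25a31). The NF-Y letters CCAAT (37.4% of promoters and 38.2% of coding promoters) matched 5 times at Atp5g1, from -229 to -69. There the matches at -95 and -92 overlapped on opposite strands. The CCAAT letters also matched at 2 places in Slc25a4 and at 1 in Atp5g3. The E-box CACGTG (7.15%, and 7.84% of coding promoters) matched at Atp5g1 (-44), Atp5g3 (-238) and Slc25a31 (-93).

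The GC box GGGCGG (35.7% of promoters and 46.2% of coding promoters) matched at Slc25a4, Slc25a5, Slc25a31 and Atp5g2. It was the only match at Slc25a5. The ETS letters CCGGAAG (8.86%, and 11.6% of coding promoters) matched at Slc25a4 alone, at -130. The letters TGACGTCA (CRE, 1.79%), GCCATNTT (YY1, 6.05%) and TATAAA (the core-promoter box bound by TBP, 13.6%) matched at no member, which says only that they are not in these windows. No motif was held by all 3 c-ring genes. Among all coding promoters of genes called in both replicates, 12.9% held the NRF1 letters and 39.1% the CCAAT letters, against 1.50% and 38.1% where neither replicate was called. Shares were also higher for ETS (22.0% against 3.17%), the GC box (66.6% against 27.0%), the E-box (11.0% against 5.13%), CRE (3.94% against 1.01%) and YY1 (10.6% against 3.54%). For TATAAA the share was lower (6.16% against 18.9%). The median CpG ratio of the same promoters was 0.82 against 0.26, and its part in these shares was not tested.

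The other genes of ATP synthase and of adenylate exchange were compared by the same start-site rule. Over all protein-coding genes, 34.5% were called in both replicates by start sites and 31.9% by gene ends. With a CpG ratio of at least 0.6 the start-site share was 59.8%. Of 18 genes for the F1 head, the stalks, the membrane part and assembly with a start-site entry (of 21 listed), 15 were called in both replicates, 2 in replicate 2 alone and 1 in neither. By either gene end the count was 15 of 21, and the highest-ranking by that rule were Atp5b, the catalytic beta subunit (fold enrichment 6.54 and 9.30), Atp5md, the small membrane subunit DAPIT (5.44 and 8.77), Atp5l, the g subunit of the membrane part (5.41 and 8.50), and Dmac2l (5.31 and 9.03). Atpaf2, an assembly factor of the F1 head, had no summit at a gene end but ranked next to Atp5b by its start-site peaks (6.78 and 9.19). By gene ends, Atp5d, Atp5e, Atp5k and Tmem70 had a summit in replicate 2 alone. Atp5d shared its summit with an end of Midn, and Atp5e with an end of Prelid3b. Of the 15 called by gene ends, 8 shared their summit with the end of another gene, as Atp5j did with Gabpa and Atp5h with Kctd2, while the start-site summits of the c-ring genes lay near no other protein-coding gene.

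Of 9 other carriers of nucleotides, cofactors or phosphate with a start-site entry (of 11 listed), 7 were called in both replicates, 1 in replicate 2 alone and 1 in neither. By gene ends 8 of 11 were called in both, led by Slc25a25, an ATP-magnesium/phosphate carrier (5.30 and 17.1), Slc25a42, which carries coenzyme A (5.02 and 10.4), Slc25a36 (4.68 and 7.44) and Slc25a33 (4.47 and 8.50), both carriers of pyrimidine nucleotides. Slc25a24 and Slc25a41 had a summit in replicate 2 alone. That of Slc25a41 lay 871 bp from its gene end and was shared with an end of Khsrp. Slc25a3, the phosphate carrier that supplies ATP synthase, was called in both (3.89 and 10.3). Of 8 partners in adenylate exchange with an entry (of 11 listed), 4 were called in both replicates. By gene ends the count was 6 of 11, led by the outer-membrane channel gene Vdac3 (6.37 and 10.1) and by Ppif (6.13 and 6.38), and Ak3 had a summit in replicate 2 alone. Hk1 had no summit at a gene end but ranked above Ppif by its start-site peaks (5.61 and 9.83). The shares over all protein-coding genes were 34.5% by start sites and 31.9% by gene ends. The list shares are counts without a test, and the difference between them and the members was not tested.

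**Figure D5:**
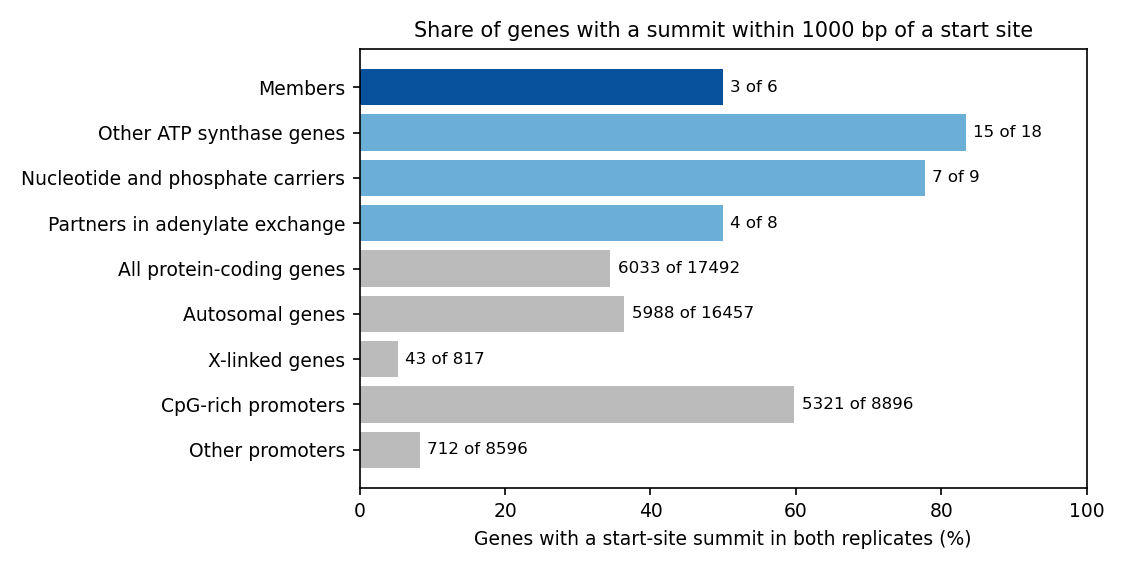
Share of genes, in percent, with a summit within 1000 bp of a RefSeq start site in both replicates, for the members (dark blue), the other lists (light blue) and sets of protein-coding genes (grey), with the counts beside each bar. The members reach 3 of 6, between the 34.5% of all protein-coding genes and the 59.8% of genes with CpG-rich promoters. By the main rule of either gene end, not plotted, they reach 2 of 6, against 31.9% of all protein-coding genes.

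By the rank of their fold enrichment in the 2 lists, the nearest in pattern among the 30 other listed genes called by gene ends were Hk2 and Slc25a17 to Atp5g1, and Vdac1 and Slc25a3 to Atp5g2. Hk2 (percentiles 13.97 and 71.9) lay 8.56 percentile points from Atp5g1, and Vdac1 (36.2 and 84.5) lay 6.89 points from Atp5g2. For Atp5g3, ranked by start-site peaks, the nearest of 28 were Slc25a23 at 3.77 points and Atp5c1 at 6.80, both also low in replicate 1 and high in replicate 2. The likeness rests on 2 libraries and is a description only.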

How the data were processed

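Per the submitters' processing notes, reads were handled with Bowtie2, MACS2, cutadapt, Trimmomatic, FastQC and ChIPseeker on build mm10, with no versions or roles named. Per the labels' protocols, libraries were made with a Vazyme TruePrep kit. The authors deposited peaks called separately for each Flag library, with a fold enrichment (a linear ratio), −log10 p and −log10 q values, and a score that is 10 times the −log10 q. The control and cutoff of peak calling are not given in the sources used here. Since the lists hold no counts, depth is unknown and no interval is given.

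Only chromosomes 1 to 19, X and Y entered. A summit is the peak start plus the deposited offset, printed counting from 1. Gene bounds came from the RefSeq table of GRCm38.p6, and start sites and sequences from the RefSeq promoter table of that build, which covered 17492 of 21887 protein-coding genes. No start site on chromosome 18 was used here, so start-site shares leave that chromosome out. Exons and introns were not analysed here. The main rule fixed for the counts was a summit within 1000 bp of either gene end, and start sites were an alternative to it. Peaks overlapped when they shared at least 1 bp.

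The members and lists were chosen with earlier results of these data known. Named genes were the members, their neighbours at a peak, up to 4 genes per list with the highest score (the lower of a gene's 2 fold-enrichment percentiles), those called in replicate 2 alone, and the 2 nearest in rank to a member. The examples Atpaf2, Atp5j, Atp5h, Slc25a3, Ppif and Hk1, the genes sharing a summit with a listed gene, and the genes nearest to Atp5g3 were named after their values were seen. Calls and motif searches were tested on simulated data. Whether the replicates are from separate mice is not in the labels, so what they share may be technical. Calculations used Python 3.11.15, numpy 2.4.6 and pandas 2.3.3.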

Additional observations from a re-analysis of the deposited data

How the results depend on the processing

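The count of 2 members called by gene ends in both replicates was 2 or 3 under every alternative except a fold enrichment of at least 5, where it was 0. That cutoff also gave 0 members with a peak within 10 kb in both replicates, 5 other ATP synthase genes against 15, 2 carriers against 8, and 2084 genes in all against 6981. With −log10 q of at least 5 the number of all genes was 4619 by gene ends and 4022 by start sites. Leaving out summits near several genes took the ATP synthase list to 7, and start sites with a 500 bp window took the carriers to 5. Start sites with another window or cutoff were chosen after the data were seen. When the overlap had to cover 50% of both peaks, 1 member kept overlapping peaks against 3, and the same share over all genes was not computed. With a single replicate, 3 members were called by gene ends in either, 3 to 5 had a peak within 10 kb, and the counts were 15 to 19 for ATP synthase, 8 to 10 for carriers and 7128 to 9954 for all genes. Leaving out replicate 1 adds Slc25a5 to the gene-end calls, and leaving out replicate 2 adds Atp5g3. Slc25a4 and Slc25a31 were not called by gene ends or start sites under any of these settings. The cutoffs leave fewer peaks by construction, and the cause of the other changes was not tested. No paired analysis was possible because no result comes from a test between groups: the counts rest on the Flag libraries alone. Depth is unknown, so a missing peak, as at Slc25a5 in replicate 1, does not show that signal was absent.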
